A study of Mus musculus with 200 samples.

Results

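The genes described here encode the receptors for serotonin, dopamine, noradrenaline and adrenaline, acetylcholine and histamine. They were taken by name, as genes whose symbol starts with Htr, Drd, Chrm or Hrh followed by a digit, with Adra or Chrn, or with Adrb followed by a digit, and were kept when at least 20 of the 200 mice had at least 10 estimated counts. Of the 56941 genes listed, 54 had such a name, and 46 of these passed the count minimum and are the members of the set. They comprised 12 Htr, 12 Chrn, 6 Adra, 5 Chrm, 5 Drd, 3 Adrb and 3 Hrh genes. Htr3b, Chrne, Chrng, Chrnd, Chrna9 and Hrh4 reached 10 counts in 0 mice, Htr2b in 9 and Chrna10 in 10, and these 8 genes were left out. Just inside the minimum were Chrnb4 with 24 mice, Drd3 with 26, Drd4 with 58 and Chrna1os with 61. Chrna1os is a long noncoding RNA annotated beside Chrna1 on the opposite strand, without overlap. It encodes no receptor, but its name meets the rule.

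The series asked how brain gene expression changed after closed head injury (CHI), an impact on the intact skull, and what part the interleukin-1 receptor IL-1R1 has in it. Bulk RNA sequencing (RNA-seq) was done on 1 brain hemisphere per mouse from 200 mice, of which 67 had sham surgery and all others CHI, and which were male (98) or female (102) and 3.3 to 7.67 months old. The mice were either C57BL/6J or of a genotype labelled IL-1R1 gKO, one labelled IL-1R1 eRestore or one labelled IL-1R1 nRestore. The numbers of CHI and sham mice at 9, 24 and 72 h after surgery were 15 and 6, 14 and 6, and 14 and 6 for C57BL/6J. They were 13 and 6, 12 and 6, and 12 and 6 for IL-1R1 gKO, 12 and 6, 9 and 5, and 12 and 6 for IL-1R1 eRestore, and 6 and 4, 8 and 5, and 6 and 5 for IL-1R1 nRestore. The labels do not spell out the 3 genotype names or give the constructs, promoters or Cre lines behind them. The level of Il1r1 itself did not check them. Its median was 5.24 CPM (counts scaled to library size) in C57BL/6J mice, 9.91 in IL-1R1 gKO, 7.74 in IL-1R1 eRestore and 9.35 in IL-1R1 nRestore, so genotypes are used below as labelled. All IL-1R1 nRestore mice at 72 h were labelled male. No experiment held both 9 h mice and mice of a later time point, so time point and experiment cannot be told apart, and the IL-1R1 nRestore mice at 9 h all came from 1 experiment. Sex-linked transcripts went against the labelled sex in 2 libraries, both labelled male. They were an IL-1R1 eRestore sham mouse at 24 h and an IL-1R1 nRestore CHI mouse at 72 h. Leaving them out changed no call of a member between CHI and sham mice, within a strain or over the 4 strains. The tests of differences between sexes, strains and time points and those of sham mice were not rerun without them. The total of estimated counts per mouse ran from 14857985 to 57355676.

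By way of background, all of these receptors except the channels are G protein-coupled. Receptors coupled to Gs raise cyclic AMP, those coupled to Gi/o lower it and dampen release or firing, and those coupled to Gq/11 release calcium from stores. The nicotinic acetylcholine receptors and the 5-HT3 receptor are channels built of several subunits, which open directly when the transmitter binds. The transmitters come from small nuclei of the brainstem, hypothalamus and basal forebrain that send axons over the whole hemisphere, whereas the receptors are made by the target cells, and several are also made by the projecting neurons as autoreceptors. Dopamine receptors Drd1 and Drd2 mark the projection neurons of the striatum, so their level in a hemisphere depends strongly on that region.

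On the length-adjusted TPM scale, averaged over the 200 mice, the most abundant members were Chrm1 at 67.0, Hrh3 at 55.3, Drd1 at 44.6 and Chrm3 at 32.0. Chrm1 and Chrm3 are Gq/11-coupled muscarinic receptors, and Hrh3 is the Gi/o-coupled histamine receptor that acts as an autoreceptor on histamine neurons. The highest of each of the other families were Htr2c at 24.3 TPM, Adrb1 at 19.7, Adra1d at 18.4 and Chrnb2 at 17.9. At the low end stood Drd4 at 0.38 TPM, Drd3 at 0.29, Chrna1 at 0.20 and Chrnb4 at 0.12, so the set covers a wide range of levels.

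Upstream sequence is shown for the pair of members that were higher (Drd4, Adra1b) and the pair that were lower (Adrb1, Htr1b) after CHI with the smallest p-values at 9 h. The sequences are the 250 bases before the annotated start of each gene, 5′ to 3′ on the gene's strand, from RefSeq (GRCm38.p6). They lie at chr7:141291768-141292017 on the plus strand for Drd4, chr11:43901238-43901487 on the minus strand for Adra1b, chr19:56721867-56722116 on the plus strand for Adrb1 and chr9:81633833-81634082 on the minus strand for Htr1b. Capitals mark matches to the 3 motifs searched on both strands, the cyclic AMP response element TGACGTCA, its half-site TGACG, which every full element also contains, and the GC box GGGCGG.
Drd4: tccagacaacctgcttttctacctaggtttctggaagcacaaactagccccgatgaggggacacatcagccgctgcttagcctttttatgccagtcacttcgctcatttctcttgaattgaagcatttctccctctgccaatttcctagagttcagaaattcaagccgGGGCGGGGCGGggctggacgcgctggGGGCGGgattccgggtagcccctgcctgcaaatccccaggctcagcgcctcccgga
Adra1b: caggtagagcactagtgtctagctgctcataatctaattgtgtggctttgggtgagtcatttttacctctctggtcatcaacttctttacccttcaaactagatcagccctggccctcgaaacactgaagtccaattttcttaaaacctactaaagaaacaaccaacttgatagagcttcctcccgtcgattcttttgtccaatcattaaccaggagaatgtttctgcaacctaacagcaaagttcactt
Adrb1: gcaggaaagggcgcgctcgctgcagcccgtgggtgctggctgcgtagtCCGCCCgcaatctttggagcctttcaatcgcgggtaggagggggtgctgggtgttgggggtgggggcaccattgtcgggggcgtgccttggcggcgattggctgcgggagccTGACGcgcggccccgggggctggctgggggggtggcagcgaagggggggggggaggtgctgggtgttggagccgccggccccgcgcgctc
Htr1b: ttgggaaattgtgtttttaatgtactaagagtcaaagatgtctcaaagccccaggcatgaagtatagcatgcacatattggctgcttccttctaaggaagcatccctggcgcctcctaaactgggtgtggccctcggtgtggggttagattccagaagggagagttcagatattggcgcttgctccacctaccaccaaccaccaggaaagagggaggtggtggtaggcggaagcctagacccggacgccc
The Drd4 window held 3 GC boxes in its 3′ part, of which the first pair overlap. The Adrb1 window held 1 GC box on the opposite strand, near its 5′ end, and 1 half-site. No match was present in the windows of Adra1b and Htr1b. Of the 46 members 35 had an entry in the promoter table, and 20 of these held a GC box, 6 a half-site and 0 the full element. Among all 32851 windows of the table the shares were 32.7%, 17.8% and 1.55%.

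The first question was which receptors differed between CHI and sham mice at 9 h in 1 fit of the 4 strains that accounted for strain, sex and age (46 CHI and 22 sham mice). Of the 45 members that passed the filter on low counts, 14 changed at an adjusted p under 0.05 in edgeR's quasi-likelihood test, 6 higher and 8 lower. Of all 18741 genes tested 23.9% passed (12.0% higher and 11.9% lower), so a large share of all genes also differed at this time. Drd4, Adra1b, Chrm2, Chrnb2, Htr5a and Chrna1 were higher after CHI, and Adrb1, Htr1b, Chrna7, Drd1, Hrh1, Drd2, Htr2a and Htr1d were lower. By role, 3 of 14 Gi/o-coupled receptors were higher and 3 lower, 0 of 9 Gs-coupled receptors were higher and 2 lower, 1 of 9 Gq/11-coupled receptors was higher and 2 lower, and 2 of 12 channel subunits were higher and 1 lower. The median log2 fold change was -0.04 over the members and -0.003 over all genes, and 32 of the 45 members lay within 0.25 of 0. The member left out by the filter was Drd3. At an unadjusted p under 0.05 there were 23 members. The 9 h mice came from 3 experiments, which taken alone gave 10, 6 and 4 called members. The share of all genes in these smaller fits is not given here. The 14 kept their direction in each where tested, in mice that were also part of the fit that called them.

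**Figure D1:**
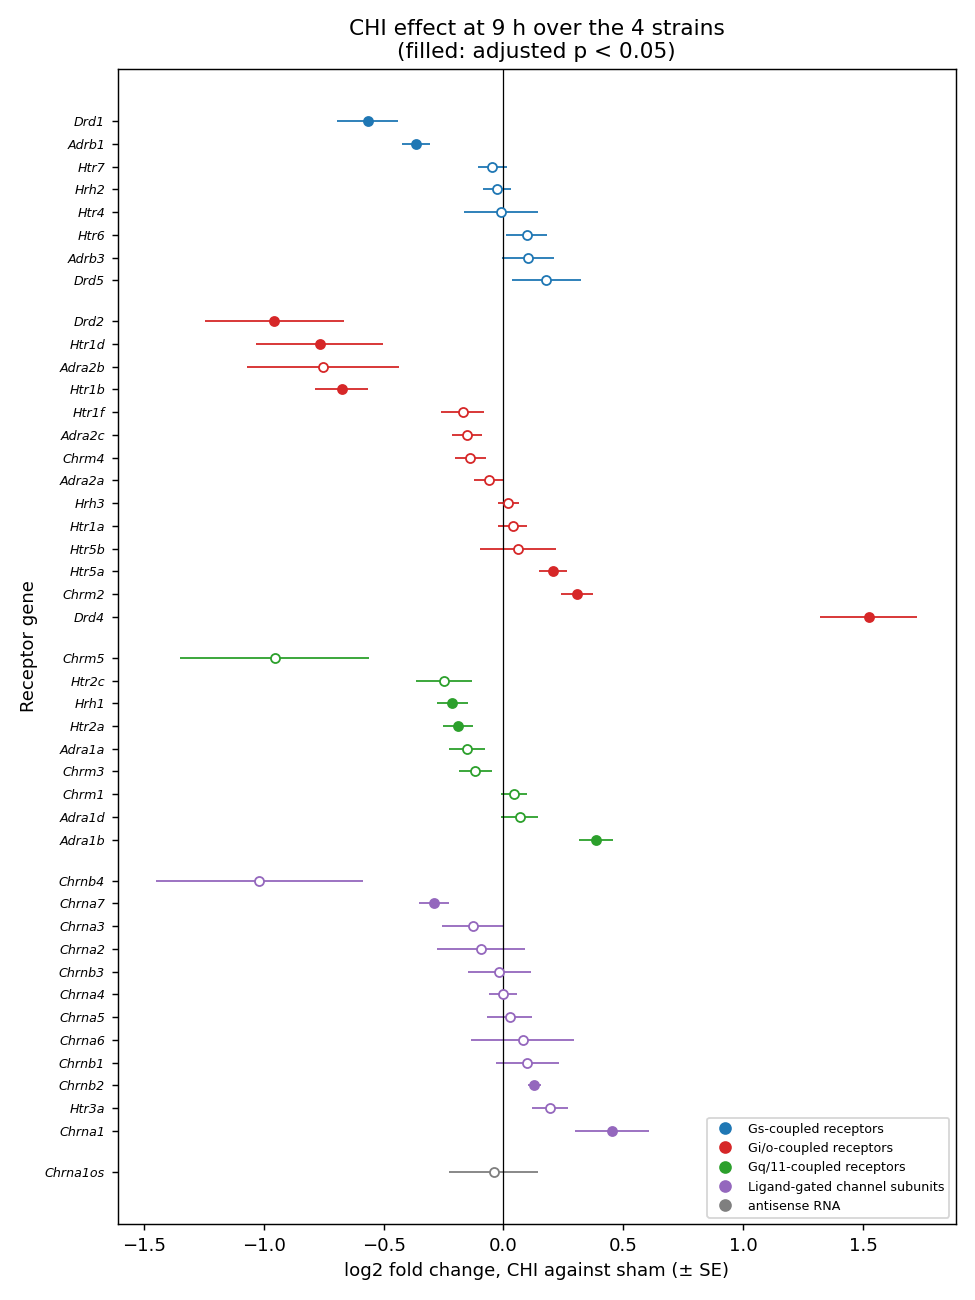
Log2 fold change of CHI against sham at 9 h over the 4 strains (x axis) for members tested, grouped by coupling, with bars of 1 standard error and filled points for an adjusted p under 0.05. Drd4 stands far to the right at 1.52, and the called lower members run from -0.96 for Drd2 to -0.19 for Htr2a.

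Among the Gi/o-coupled receptors the largest increase was that of Drd4, the D2-like dopamine D4 receptor (ENSMUSG00000025496, chr7:140871902-140876377, plus strand, GRCm39). In C57BL/6J mice at 9 h Drd4 ran from 0.654 to 2.23 CPM after CHI (median 1.13) and from 0.17 to 0.639 CPM in sham mice (median 0.364), and each of the 15 CHI mice was above the highest of the 6 sham mice. In IL-1R1 eRestore mice the CHI values were 0.359 to 2.14 CPM (median 1.05) against 0.0558 to 0.573 CPM in sham (median 0.245). In IL-1R1 gKO mice they were 0.193 to 1.87 CPM (median 1.02) against 0.0662 to 1.17 CPM (median 0.47). The groups overlapped in both of these strains. In IL-1R1 nRestore mice Drd4 was 0.786 to 1.60 CPM after CHI (median 0.914), and the 4 sham mice had 0.16, 0.18, 0.27 and 0.79 CPM, so the highest sham mouse reached the lowest CHI mouse. Over the 4 strains the log2 fold change was 1.52 ± 0.20 (SE), or 2.88-fold, with an adjusted p of 2.26e-08 (edgeR). These values rest on few reads, a median of 24 estimated counts per CHI mouse and 7 per sham mouse. Drd4 is also known from the pineal gland. Of the 4 pineal markers examined 2 had a median of 0 TPM. The 1 that could be tested, Tph1, was lower after CHI at 9 h by 0.80 on the log2 scale over the 4 strains. Within strains its log2 fold change was 0.27 in C57BL/6J, -1.69 in IL-1R1 gKO, -0.52 in IL-1R1 eRestore and -0.84 in IL-1R1 nRestore mice. The part of the pineal gland in the Drd4 result was not tested.

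Htr1b and Htr1d, the serotonin 5-HT1B and 5-HT1D receptors that inhibit release from axon terminals, were both lower. Htr1b (ENSMUSG00000049511, chr9:81510344-81515902, minus strand, GRCm39) ran from 3.72 to 11.4 CPM after CHI in C57BL/6J mice at 9 h (median 5.14) and from 7.19 to 19.6 CPM in sham (median 9.15). IL-1R1 eRestore mice had 4.34 to 9.01 CPM (median 6.38) against 5.21 to 19.6 CPM (median 9.96), and IL-1R1 gKO mice 3.87 to 15.4 CPM (median 6.84) against 6.78 to 29.2 CPM (median 10.3). The ranges overlapped in these 3 strains, although the CHI median was the lower in each. In IL-1R1 nRestore mice the CHI values, 8.24 to 13.1 CPM (median 10.8), all lay below the sham values of 15.3, 15.9, 16.2 and 18.7 CPM. The change over the 4 strains was -0.67 ± 0.11 (adjusted p = 2.71e-06, edgeR), or 0.627 of the sham level. Htr1d had lower counts, with 0 to 2.80 CPM after CHI (median 0.731) and 0.235 to 4.41 CPM in sham (median 1.27), and a log2 fold change of -0.77 ± 0.26 (adjusted p = 0.0256, edgeR).

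Drd2, the dopamine D2 receptor of striatopallidal neurons and an autoreceptor of dopamine neurons, showed the widest spread. After CHI at 9 h it ran from 0.382 to 23.2 CPM (median 3.36) over the 4 strains, and in sham mice from 0.567 to 46.7 CPM (median 8.05), so that both groups spanned a wide and overlapping range. Its log2 fold change was -0.96 ± 0.29 (adjusted p = 0.0105, edgeR). Chrm2 and Htr5a were the other members of this class that rose. Chrm2, the muscarinic M2 autoreceptor, had a median of 33.8 CPM after CHI (21.3 to 44.3) and 26.5 CPM in sham (18.1 to 40.7), a log2 difference of 0.31 ± 0.07 (adjusted p = 0.000322, edgeR). Htr5a, the serotonin 5-HT5A receptor, had a median of 32.2 CPM (19.9 to 44.4) against 26.8 CPM (20.8 to 37.1), a log2 difference of 0.21 ± 0.06 (adjusted p = 0.00479, edgeR). The ranges of both genes overlapped between the groups.

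**Figure D2:**
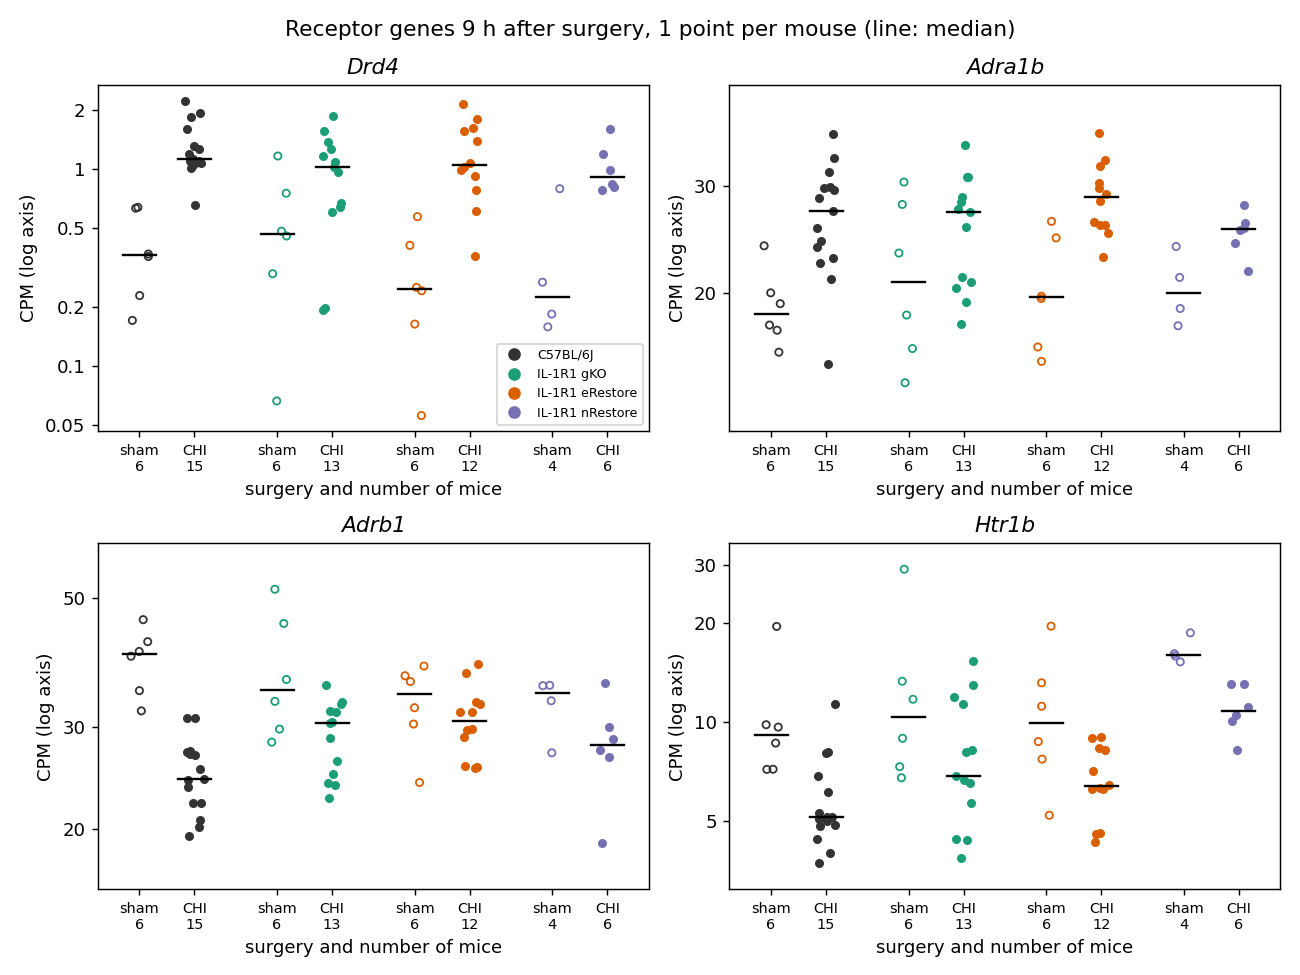
Level of Drd4, Adra1b, Adrb1 and Htr1b at 9 h in every mouse (CPM, log axis), by strain and surgery, with a line at the median of each group. In C57BL/6J mice the CHI and sham points are apart for Drd4 and Adrb1, and in IL-1R1 nRestore mice they are apart for Htr1b.

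Of the 9 Gs-coupled receptors none was called higher at 9 h over the 4 strains, and Adrb1 and Drd1 were called lower. Of all genes 12.0% were higher and 11.9% lower, so so few members show no pattern of the class. Adrb1, the beta-1 adrenoceptor through which noradrenaline raises cyclic AMP (ENSMUSG00000035283, chr19:56710631-56721545, plus strand, GRCm39), had 19.5 to 31.1 CPM after CHI in C57BL/6J mice (median 24.4) and 31.9 to 45.8 CPM in sham (median 40.0). Here each of the 15 CHI mice was below the lowest of the 6 sham mice. In IL-1R1 gKO mice Adrb1 was 22.6 to 35.4 CPM (median 30.5) against 28.2 to 51.7 CPM (median 34.7), and in IL-1R1 eRestore mice 25.5 to 38.4 CPM (median 30.8) against 24.1 to 38.2 CPM (median 34.1). In IL-1R1 nRestore mice the CHI values were 18.9 to 35.7 CPM (median 28.0), and the sham mice had 27.1, 33.3, 35.3 and 35.4 CPM. These 3 strains overlapped. The log2 fold change over the 4 strains was -0.36 ± 0.06, or 0.777 of the sham level (adjusted p = 1.80e-06, edgeR). Gm59115, Gm59077 and Gm59082 are annotated on the opposite strand within this locus, and without a stated strandedness of the libraries their reads cannot be told from those of Adrb1. Drd1, the D1 receptor of striatonigral neurons, had a median of 15.0 CPM after CHI (8.58 to 40.5) and 21.2 CPM in sham (9.69 to 66.6), a log2 fold change of -0.57 ± 0.13 (adjusted p = 0.000498, edgeR).

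Of the Gq/11-coupled receptors Adra1b rose and Hrh1 and Htr2a fell. Adra1b, the alpha-1B adrenoceptor (ENSMUSG00000050541, chr11:43665433-43792037, minus strand, GRCm39), ran from 15.3 to 36.5 CPM after CHI (median 27.3) and from 16.0 to 23.9 CPM in sham (median 18.5) in C57BL/6J mice. The values were 22.9 to 36.5 CPM (median 28.7) against 15.5 to 26.2 CPM (median 19.7) in IL-1R1 eRestore mice, and 17.8 to 34.9 CPM (median 27.2) against 14.3 to 30.4 CPM (median 20.8) in IL-1R1 gKO mice. In IL-1R1 nRestore mice they were 21.8 to 27.9 CPM (median 25.5) after CHI and 17.7, 18.9, 21.2 and 23.9 CPM in the sham mice. The CHI median was the higher in each strain, while the ranges overlapped in all 4. The log2 fold change over the 4 strains was 0.39 ± 0.07, or 1.31-fold (adjusted p = 1.83e-05, edgeR). Adrenoceptors that respond to the same transmitter thus moved in opposite directions, Adra1b up and Adrb1 down. Hrh1, the histamine H1 receptor that antihistamines block, had a median of 12.6 CPM after CHI (7.38 to 19.4) and 14.6 CPM in sham (9.59 to 20.3), a log2 difference of -0.21 ± 0.06 (adjusted p = 0.0103, edgeR). Htr2a, the cortical serotonin 5-HT2A receptor, had a median of 37.5 CPM (28.7 to 58) against 43.7 CPM (26.3 to 66.6), a log2 difference of -0.19 ± 0.06 (adjusted p = 0.0191, edgeR). The ranges of Hrh1 and Htr2a overlapped.

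Among the channel subunits Chrna7, which forms a calcium-permeable receptor of identical subunits, fell, and Chrnb2 and Chrna1 rose. Chrna7 had a median of 8.44 CPM after CHI (4.64 to 12.3) and 10.1 CPM in sham (7.29 to 13.0), a log2 fold change of -0.29 ± 0.06 (adjusted p = 0.000271, edgeR). Chrnb2, the partner of Chrna4 in the main high-affinity nicotine receptor of the brain, had a median of 69.3 CPM (52.4 to 80.4) against 62.3 CPM (54.3 to 68.2). Its change was small, 0.13 ± 0.03 on the log2 scale (adjusted p = 0.000271, edgeR), and Chrna4 itself differed by -0.001 ± 0.06. Adar lies on the opposite strand over Chrnb2. Of the members called at 9 h over the 4 strains, Htr1b, Adra1b, Drd2, Chrm2, Htr5a, Hrh1 and Chrna1 also overlap genes on the opposite strand. The limit given for Adrb1 holds for all of these. Chrna1, the alpha subunit of the muscle receptor, reached at most 1.57 CPM in every mouse at 9 h, with a median of 0.648 CPM after CHI and 0.529 CPM in sham, and a log2 fold change of 0.45 ± 0.16 (adjusted p = 0.0252, edgeR). Of the skeletal muscle markers examined 1 of the 3 that could be tested was higher at 9 h, and its part in the Chrna1 result was not tested. Htr3a, the subunit of the 5-HT3 channel, missed the threshold with 0.19 ± 0.07 (adjusted p = 0.0509, edgeR).

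The most abundant members of the other families did not pass the test at 9 h over the 4 strains. The log2 differences were 0.04 ± 0.05 for Chrm1, 0.02 ± 0.04 for Hrh3, 0.07 ± 0.08 for Adra1d and -0.25 ± 0.12 for Htr2c. Htr2c, the serotonin 5-HT2C receptor, is made in the choroid plexus as well as in neurons. All 9 choroid plexus markers were lower after CHI at 9 h (median log2 fold change -1.95), and their summed level ran from 11.4 to 6383 TPM in sham mice (median 52.7) and from 5.97 to 2560 TPM after CHI (median 28.0). The part of this tissue in the Htr2c values was not tested.

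The same comparison was then made within each strain. At 9 h in C57BL/6J mice 10 of 42 members changed, 4 higher and 6 lower, against 14.1% of all genes tested (7.05% higher and 7.0% lower). Drd4 rose by 1.68 ± 0.29 (adjusted p = 0.000266), Adra1b by 0.47 ± 0.11, Chrm2 by 0.42 ± 0.08 and Chrnb2 by 0.19 ± 0.05 on the log2 scale (edgeR). Htr1b had a log2 fold change of -0.81 ± 0.21, Adrb1 -0.66 ± 0.09 (adjusted p = 1.04e-05), Chrna7 -0.51 ± 0.13, Hrh1 -0.47 ± 0.12, Chrm4 -0.39 ± 0.08 and Chrm3 -0.27 ± 0.08. Chrm2, Chrm3 and Chrm4 encode muscarinic receptors. The Chrm3 call was lost in 9 of 16 alternatives, among them 5 of the 6 that left out a sham mouse, with adjusted p up to 0.239 (edgeR). For 2 members, Drd4 and Adrb1, the CHI and sham ranges did not overlap, as for 1.32% of all genes. The 9 h mice of this strain came from 2 experiments, of which the one labelled eIL-1-76 alone gave 6 called members and eIL-1-80 alone gave 1. The 9 called members that could be tested in both kept their direction in each, with Adrb1 at -0.73 and -0.52. These mice are also those of the fit that called them, and the shares of all genes in single experiments are not given here.

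In IL-1R1 eRestore mice at 9 h 4 of 43 members changed, all higher, against 7.34% of all genes (4.1% higher and 3.24% lower). They were Drd4 with 2.06 ± 0.41 (adjusted p = 0.0054), Adra1b with 0.48 ± 0.11, Htr5a with 0.46 ± 0.10 and Chrm4 with 0.29 ± 0.08 (adjusted p = 0.0362, edgeR). Without sham replicate 6 of this strain 12 members were called, and with DESeq2 9. The 2 experiments taken alone gave 1 and 0. The shares of all genes under these settings are not given here. In IL-1R1 nRestore mice 1 of 44 changed, Htr1b with -0.64 ± 0.14 (adjusted p = 0.0489), against 0.608% of all genes, and the groups did not overlap for 5 members, Htr1b, Htr1d, Adra2b, Chrna1 and Htr3a, as for 5.05% of all genes in this smallest comparison. The Htr1b call in this strain was lost in 8 of the 10 fits that left out 1 mouse. In IL-1R1 gKO mice 0 of 44 members passed, against 0.199% of all genes, while 8 had an unadjusted p under 0.05 and the smallest adjusted p was 0.194, for Adrb1. DESeq2 also called 0 members there, and leaving out sham replicate 4 gave 1, Htr2a.

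**Figure D3:**
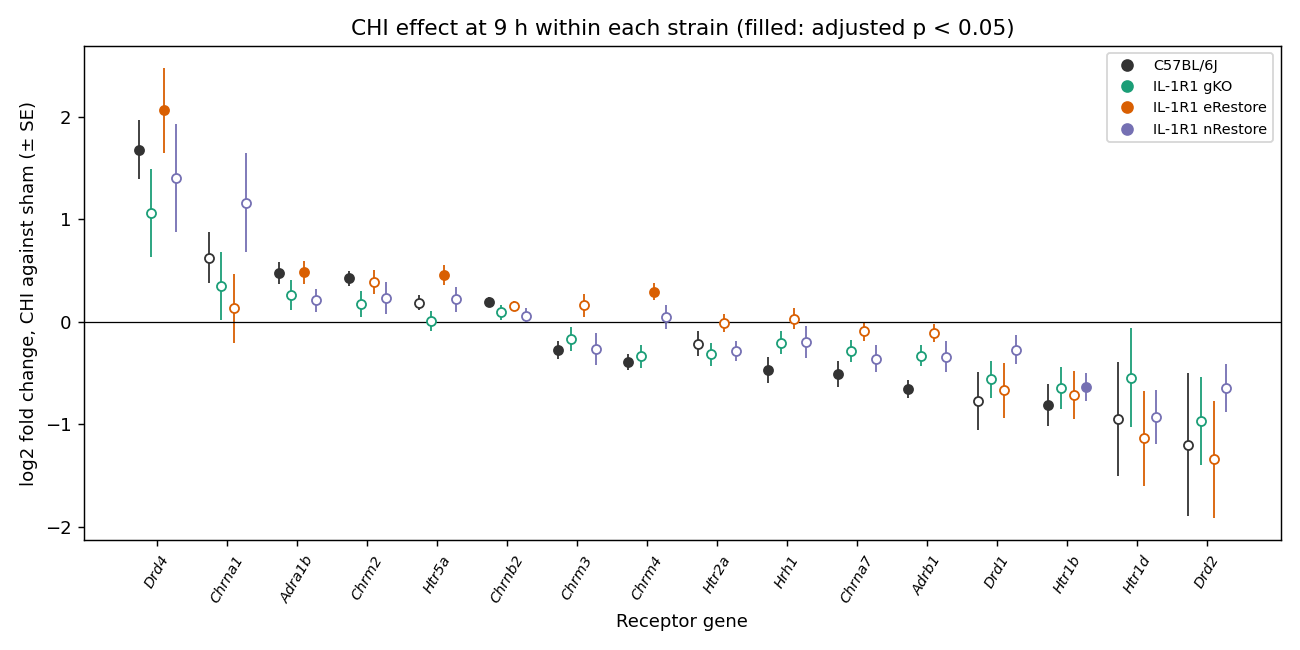
Log2 fold change of CHI against sham at 9 h within each strain, with bars of 1 standard error, for the 16 members called at 9 h over the 4 strains or within a strain, filled where the adjusted p was under 0.05. Drd4 lies above 0 and Htr1b, Htr1d, Drd1 and Drd2 lie below 0 in all 4 strains. Chrm4 lies on opposite sides of 0 in C57BL/6J and IL-1R1 eRestore mice.

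A call in 1 strain and not in another does not show that strains differ, so the difference was tested as an interaction. Of the 14 members called over the 4 strains, 13 had the same sign in all 4 strains, the exception being Hrh1 with 0.03 in IL-1R1 eRestore mice. Of all 42 members with a value in every strain, 19 did, and these include the 13. The 14 were called from these same mice, so their shared sign follows in part from that choice and is no independent check. With sex and age as covariates no member passed the test of a difference between a strain and C57BL/6J in its response at 9, 24 or 72 h, where at most 2 of all genes did (0.0107% and 0.0108% for IL-1R1 eRestore at 9 and 24 h, 0.00534% and 0.00543% for IL-1R1 nRestore at 9 and 72 h, 0.00541% for IL-1R1 gKO at 24 h and 0.0% otherwise). The closest was Chrm4, the muscarinic M4 receptor of striatal neurons. In C57BL/6J mice Chrm4 had 10.8 to 19.5 CPM after CHI (median 14.9) and 15.4 to 23.2 CPM in sham (median 19.3), in IL-1R1 eRestore mice 13.8 to 21.6 CPM (median 16.9) and 11.1 to 15.8 CPM (median 14.8). The sham median was the higher of the pair in C57BL/6J mice and the lower in IL-1R1 eRestore mice. The response of Chrm4 was 0.65 ± 0.15 higher in IL-1R1 eRestore than in C57BL/6J mice on the log2 scale (adjusted p = 0.137, edgeR), and that of Adrb1 0.55 ± 0.15 higher (adjusted p = 0.139). The Chrm4 difference passed the test with experiment in place of age (0.61, adjusted p = 0.0091, edgeR) and with DESeq2 (0.65, adjusted p = 0.031). For IL-1R1 gKO against C57BL/6J the smallest adjusted p at 9 h was 0.742, and the Drd4 difference of -0.67 had a 95% interval of -1.68 to 0.34, which leaves room for a sizeable difference either way. Between male and female mice 0 members passed the test of a difference in response at any time point, as did 0.0% of all genes, with smallest adjusted p-values of 1.0, 0.911 and 0.541 at 9, 24 and 72 h (edgeR). At 72 h this fit held 38 CHI and 18 sham mice, without IL-1R1 nRestore, whose mice were then all labelled male.

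At 24 and 72 h no member passed the test over the 4 strains. At 24 h 0 of 45 members were called against 1.48% of all genes, with 3 at an unadjusted p under 0.05 and a smallest adjusted p of 0.128, for Chrna7. At 72 h 0 of 44 were called against 0.706% of all genes, with 2 at an unadjusted p under 0.05 and a smallest adjusted p of 0.167, for Adra2b. DESeq2 likewise called 0 at both times. The 95% interval of the log2 fold change lay within 0.5 of 0 for 40 of the 45 members at 24 h and for 39 of the 44 at 72 h, so changes as large as that of Htr1b at 9 h were outside the interval for most. Within strains 0 members were called at 24 or 72 h. The shares of all genes were 0.404%, 0.0059%, 0.0% and 0.0% at 24 h and 0.0%, 0.0%, 0.00605% and 0.0121% at 72 h in the order C57BL/6J, then IL-1R1 gKO, then IL-1R1 eRestore and last IL-1R1 nRestore. In IL-1R1 gKO mice at 24 h 7 members had an unadjusted p under 0.05, the smallest adjusted p being 0.054 for Drd1, and DESeq2 called 3.

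**Figure D4:**
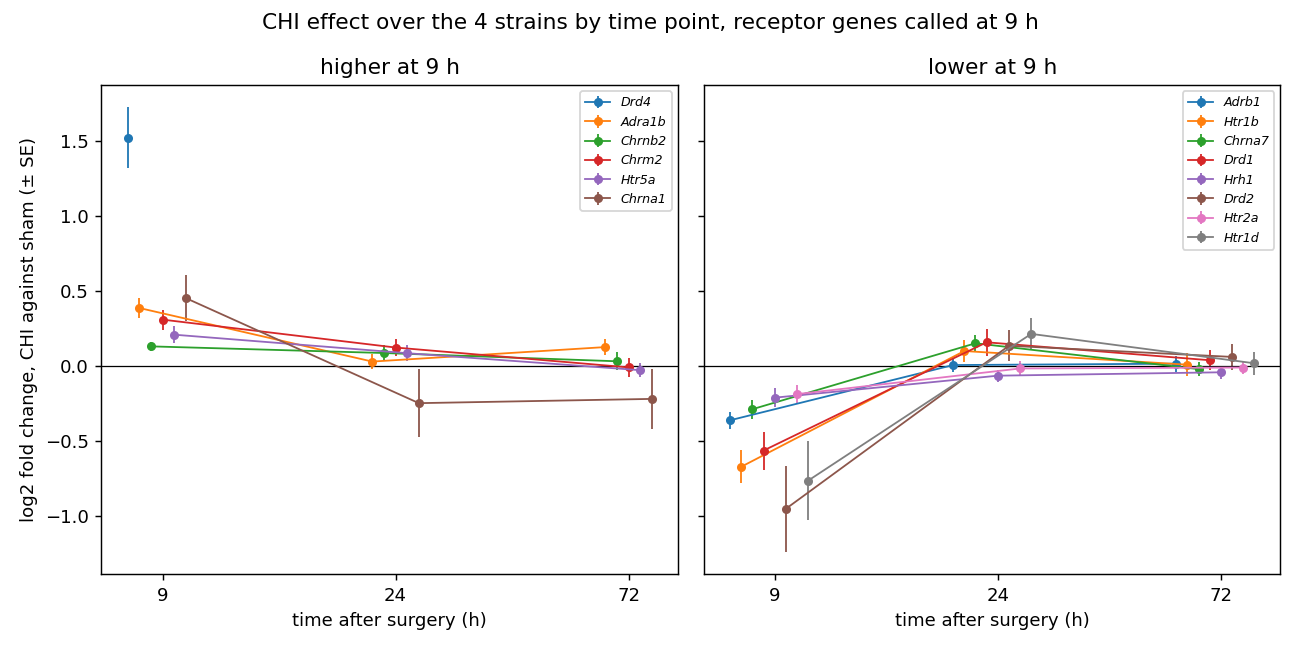
Log2 fold change of CHI against sham over the 4 strains at 9, 24 and 72 h, with bars of 1 standard error, for the 14 members called at 9 h. The effects at 24 and 72 h lie near 0, and Drd4 has a point at 9 h alone because it fell below the count filter at the later times.

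Whether the response to CHI changed between time points was tested with all 200 mice in 1 fit. From 9 to 24 h the effect differed for 8 of 46 members (10.7% of all genes), which were Drd4, Adra1b, Htr1b, Htr1d, Drd1, Drd2, Adrb1 and Chrna7. Drd4 was in this fit through the 9 h mice, since it fell below the count filter at 24 and 72 h. At 24 h it had a median of 3 estimated counts after CHI and 4 in sham mice, so its time differences rest on few reads. The log2 effect at 9 h minus that at 24 h was 1.33 ± 0.36 for Drd4 and 0.37 ± 0.08 for Adra1b, and -1.26 ± 0.29 for Drd2, -1.10 ± 0.26 for Htr1d, -0.83 ± 0.14 for Htr1b, -0.82 ± 0.15 for Drd1, -0.41 ± 0.08 for Chrna7 and -0.34 ± 0.08 for Adrb1 (adjusted p from 2.54e-06 to 0.00522, edgeR). In C57BL/6J mice only, Drd2, Htr1d and Drd1 lost this call (adjusted p = 0.303, 0.476 and 0.179, edgeR). With the summed level of striatal neuron markers as a covariate, chosen after the values were seen, their differences shrank to -0.44, -0.47 and -0.46 and were still called. Against 72 h these 8 and Chrm2, Htr5a and Chrnb4 differed, 11 of 46 (13.1% of all genes), with differences of 1.81 ± 0.34 for Drd4, 0.32 ± 0.09 for Chrm2, 0.24 ± 0.08 for Htr5a and -1.73 ± 0.50 for Chrnb4. Chrnb4, a ganglionic and habenular nicotinic subunit, had a median of 0.0941 CPM in the sham mice at 9 h, where 1 IL-1R1 gKO mouse reached 4.72 CPM. Without that library and 1 other that stood apart, a setting chosen after the values were seen, the Chrnb4 difference was -1.19 (adjusted p = 0.0802, edgeR) and was no longer called. Between 24 and 72 h 0 members differed in response (0.0348% of all genes), with 1 at an unadjusted p under 0.05, and DESeq2 also called 0.

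Levels at the later times show how far the sham mice at 9 h stood apart. Htr1b had medians of 24.7 and 24.3 CPM in sham mice at 24 and 72 h, against 10.5 CPM in sham mice at 9 h and 6.60 CPM after CHI at 9 h. Drd2 had 34.7 and 36 CPM against 8.05 and 3.36 CPM, and Drd1 59.0 and 59.3 CPM against 21.2 and 15.0 CPM. Both 9 h groups were thus lower than every later group in these 3 genes. Adrb1 followed another order, with 27.8 and 29.3 CPM in later sham mice, 35.3 CPM in sham mice at 9 h and 27.3 CPM after CHI at 9 h. Drd4 was higher in both 9 h groups, with medians of 0.326 CPM in sham and 1.08 CPM after CHI, against 0.159 and 0.194 CPM in later sham mice. Adra1b showed the same order, with 19.4 and 26.7 CPM against 15.9 CPM at both later times.

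In the 67 sham mice alone 32 of 46 members differed between 24 and 9 h, 11 higher and 21 lower at 24 h, where 45.9% of all genes did (24.2% higher and 21.6% lower). Between 72 and 9 h 30 members differed (44.8% of all genes), and between 72 and 24 h 0 did, with 4 at an unadjusted p under 0.05 (0.0% of all genes). The dopamine receptors Drd1 to Drd3 and the serotonin receptors Htr1b and Htr1d were higher at 24 h, with log2 differences of 1.5 ± 0.41 for Drd3, 1.47 ± 0.29 for Drd2, 1.10 ± 0.16 for Drd1, 1.04 ± 0.14 for Htr1b and 1.03 ± 0.24 for Htr1d. Lower at 24 h were Drd4 with -1.17 ± 0.31, Chrnb3 with -0.91 ± 0.14, Chrm3 with -0.63 ± 0.07, Chrna4 with -0.62 ± 0.10, Adra1d with -0.48 ± 0.09 and Adrb1 with -0.40 ± 0.07 (adjusted p up to 0.00139, edgeR). Drd4 and Drd3 had few counts in these mice, with medians of 7 and 1.5 at 9 h and of 4 and 5 at 24 h. Time after surgery, experiment and hour of collection cannot be told apart here. Surgery was done in the morning, and each experiment belongs either to 9 h or to the later times. Age followed the time point and was left out of this fit, so its part was not tested. These comparisons and those of the CHI effect at 9 h share the sham mice at 9 h.

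Markers of striatal projection neurons moved with several of these receptors. The summed level of 9 such markers was 200 to 1518 TPM in sham mice at 9 h (median 502) and 223 to 1175 TPM after CHI (median 428), against medians of 1398 and 1423 TPM in sham mice at 24 and 72 h and of 1388 and 1515 TPM after CHI. Of the 9 markers 6 were lower after CHI at 9 h over the 4 strains, at a median of -0.41 on the log2 scale, and none was called later. Within strains the medians were 286 TPM in sham and 306 TPM after CHI for C57BL/6J, 502 and 443 TPM for IL-1R1 eRestore, 476 and 425 TPM for IL-1R1 gKO and 1072 and 772 TPM for IL-1R1 nRestore. None of the 9 markers had a median of 0. In whole-hemisphere RNA, fewer cells of a type and less RNA per cell cannot be told apart.

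With the log2 of this marker sum as a further covariate, a setting chosen after the values were seen, 14 members were again called at 9 h over the 4 strains. Drd2 had a log2 fold change of -0.52 (adjusted p = 0.0032) in place of -0.96, Drd1 -0.41 in place of -0.57, Htr1b -0.59 in place of -0.67 and Htr1d -0.42 (adjusted p = 0.095, edgeR), which lost its call. Drd4 at 1.46, Adra1b at 0.36 and Adrb1 at -0.38 moved by less than 0.1. Among sham mice the same covariate left 16 members differing between 24 and 9 h in place of 32. The share of all genes under this covariate is not given here for either comparison, so these counts cannot be set against it. Drd2, Htr1d, Adra2b, Adra2c, Htr4 and Htr3a changed sign in the sham mice. Htr1d was then called lower at 24 h (-0.34, adjusted p = 0.0422, edgeR). Drd1 at 0.11, Drd3 at 0.19 and Htr1b at 0.26 lost their calls (adjusted p = 0.264, 0.808 and 0.0753, edgeR).

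**Figure D5:**
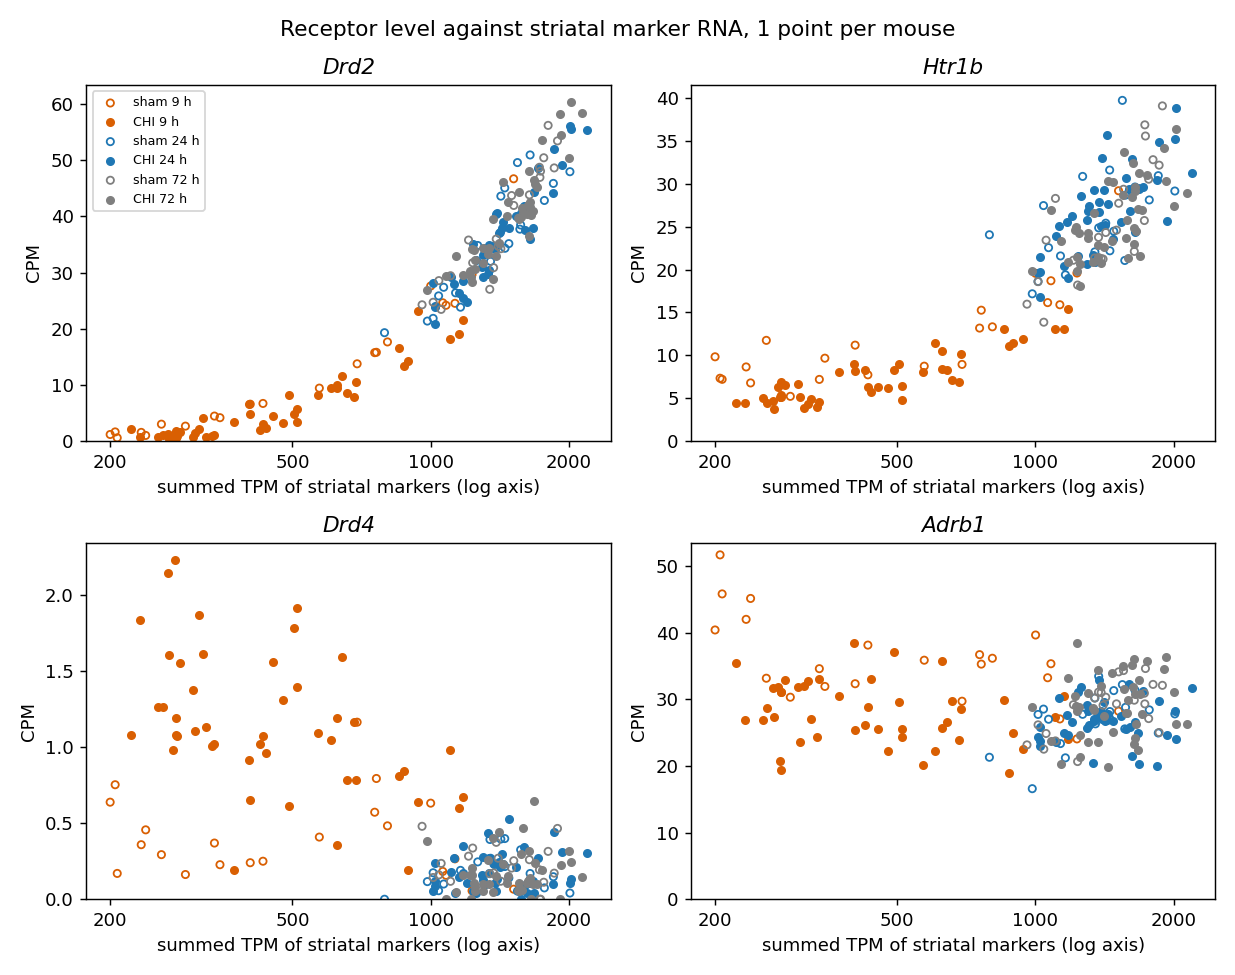
Level of Drd2, Htr1b, Drd4 and Adrb1 (CPM, linear axis) against the summed level of 9 striatal projection neuron markers (TPM, log axis) in each of the 200 mice, by time point and surgery. Most 9 h mice lie to the left of the later mice, Drd2 and Htr1b are low where the marker sum is low, and Drd4 is highest in CHI mice at 9 h.

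Markers of other cells were also read at 9 h over the 4 strains. The 5 neuron markers, which check the labelled tissue, had summed medians of 5988 TPM after CHI and 5756 TPM in sham mice. Of the markers that could be tested, 3 of 5 for microglia were lower, 2 of 5 for endothelium were higher and 2 lower, 1 of 4 for the medial habenula was higher and 2 lower, 1 of 5 for neurons was higher and 1 lower, and 1 of 5 for astrocytes was higher. For cholinergic neurons 1 of 3 was lower, and their sum had a median of 1.43 TPM after CHI and 3.03 TPM in sham mice. Brainstem monoamine neurons (0 of 5), histamine neurons (0 of 1), oligodendrocytes (0 of 5), cerebellum (0 of 5), olfactory bulb (0 of 3) and infiltrating leukocytes (0 of 2) had none called, and pituitary had 1 of 4 lower. The part of these cells in the receptor results was not tested. An IL-1R1 gKO library after CHI at 9 h had summed brainstem markers of 82.2 TPM, where the median after CHI was 5.45 TPM, and summed leukocyte markers of 65.8 TPM, where it was 2.37 TPM. Without this library and the sham library of high Chrnb4, 18 members were called at 9 h over the 4 strains, with the 14 named above among them. In IL-1R1 gKO mice 0 were called. The shares of all genes in these fits are not given here.

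The sham mice were also compared between strains. IL-1R1 gKO and IL-1R1 eRestore mice differed from C57BL/6J in 0 members (4.42% and 4.29% of all genes). IL-1R1 nRestore mice differed in 6 (14.5% of all genes), with Htr7 higher by 0.24 ± 0.07 and Chrnb3, Htr5a, Chrm4, Chrm3 and Chrm1 at -0.50 ± 0.17, -0.31 ± 0.08, -0.29 ± 0.10, -0.27 ± 0.08 and -0.25 ± 0.07 on the log2 scale (adjusted p from 0.0027 to 0.0383, edgeR). With experiment in place of time point in the fit 0 members differed, so strain and experiment are not separated here.

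The rest of the pathway was read from 3 lists of genes. Of 20 genes tested for making, moving and breaking down the transmitters, 4 were higher and 4 lower after CHI at 9 h over the 4 strains, where 12.0% of all genes were higher and 11.9% lower. Ddc, which makes dopamine and serotonin from their precursors, differed by 0.50 ± 0.11 and Ache, which breaks down acetylcholine, by 0.19 ± 0.04 on the log2 scale, both higher. Of 28 G protein subunits and second-messenger enzymes 3 were higher and 5 lower. Adcy9 and Adcy8, both adenylyl cyclases, moved apart, with 0.39 ± 0.05 and -0.52 ± 0.08, and Prkar2b, a regulatory subunit of protein kinase A, had -0.21 ± 0.04. Of 20 genes for receptor desensitization and nicotinic assembly 6 were higher and 4 lower, among them Grk5, a kinase that phosphorylates active receptors, with -0.50 ± 0.05, Arrb1, which then binds them, with 0.14 ± 0.03 and Ric3, a chaperone of nicotinic receptors, with 0.17 ± 0.03. The lists' median log2 fold changes were -0.03, -0.06 and -0.03, beside -0.003 over all genes. At 24 and 72 h over the 4 strains 1 gene of the 3 lists was called, a higher one of the first list at 24 h.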

How the data were processed

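RNA-seq libraries were made from poly(A)-selected RNA of 1 hemisphere per mouse. Per the labels and the study's methods, reads were processed with nf-core/rnaseq (STAR, Salmon) on GRCm39. The annotation release and the strandedness are not given in the sources used here. The authors deposited estimated counts per gene, not normalized, and TPM values, scaled by Salmon for transcript length and library size. Groups, sex, age and experiment came from the labels, and all 200 columns were mapped. The labels mark separate animals.

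Estimated counts were rounded and tested with edgeR 4.0.16 in R 4.3.3 (TMM factors, robust quasi-likelihood F test), on genes with 10 or more counts in at least the number of mice of the smallest group. CHI and sham mice were compared within each strain and time point with sex and age as covariates, and over the 4 strains with strain added. Interactions with strain, sex and time point were fitted alike. Contrasts of sham mice were fitted with time point, strain and sex, without age, which followed the time point. P-values were adjusted by Benjamini–Hochberg over all genes tested, and a call was an adjusted p under 0.05. Standard errors (SE) were taken from the F statistics. Levels are TMM-scaled CPM, or TPM where genes are compared. The scripts were tested on simulated data with known fold changes.

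Members described with values were those called over the 4 strains, in 2 or more comparisons within strains or in a contrast, plus the member of highest mean TPM in each family, and for each pathway list the 3 genes of smallest p at 9 h. Values of a few genes in the lists are not reported here. The members, the gene lists and the marker lists were chosen with earlier results of these data known. Alternatives were DESeq2 1.42.0 with size factors or gene-length offsets, RLE factors, other count filters and covariates, single experiments, left-out strains and left-out mice, and, chosen after seeing the data, the striatal marker covariate and left-out libraries. Positions came from GENCODE vM39 (GRCm39). Depth limits members with few counts. Intervals from counts of reads without molecular identifiers would cover counting error only, and none are given here. The standard errors and intervals above come from fits over mice and include variation between mice.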

Additional observations from a re-analysis of the deposited data

Results flagged for a closer look

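Among the 9 h groups of 4 to 10 mice, 70 combinations of a named receptor gene and a group were examined for a mouse far from the others (Dixon's test at its 95% critical value), and 10 had one. Chance would mark about 1 in 20 of independent combinations. These were not independent, since the genes of a group share the same mice and several moved with the striatal markers. Groups of this size were the sham group of each strain and the IL-1R1 nRestore CHI group. CHI mice of the other strains were thus not examined, and the marked mice were mostly bound to be sham mice. Most were single sham mice with a high level of a striatal receptor. In C57BL/6J sham mice the highest values of Drd1 (55.1 CPM), Drd2 (27.6 CPM), Htr1b (19.6 CPM) and Htr1d (3.99 CPM) stood apart. In IL-1R1 gKO sham mice the highest values of Drd2 (46.7 CPM) and Htr1b (29.2 CPM) and the lowest value of Htr2a (26.3 CPM) did. The highest value of Drd1 stood apart in IL-1R1 eRestore sham mice (53.5 CPM). In IL-1R1 nRestore sham mice the lowest value of Drd2 (15.8 CPM) and the highest of Drd4 (0.795 CPM) did.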

How the results depend on the processing

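No paired analysis was possible because the labels give no replicate numbers that groups share, and each mouse was killed at 1 time point. The 14 members called at 9 h over the 4 strains kept their direction under every alternative run, and 10 to 20 members were called under the others than single experiments, which gave 10 (eIL-1-76), 6 (eIL-1-80) and 4 (TM-2-33). Drd4 (1.57, 1.47 and 1.67) and Htr1b (-0.65, -0.60 and -0.79) were called in each of these alone. All of these fits reuse mice from which the 14 were called, and their shares of all genes are not given here. Single strains decided some calls. Hrh1 without C57BL/6J had -0.11 (adjusted p = 0.35), Htr5a without IL-1R1 eRestore 0.12 (0.17), Htr2a without IL-1R1 gKO -0.11 (0.26), and Chrna1, Drd2 and Htr1d lost their calls without C57BL/6J or another strain (edgeR).

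Other counts of called members moved as follows. Shares of all genes are not given for these settings, so the counts show only how far the calls depend on the setting. In C57BL/6J mice at 9 h (10) there were 1 in experiment eIL-1-80 alone and 6 in eIL-1-76 alone. For IL-1R1 gKO at 24 h (0) there were 3 with DESeq2 size factors, 2 with gene-length offsets and 1 with 10 counts required in every mouse. For IL-1R1 eRestore at 9 h (4) there were 9 with DESeq2 size factors, 8 with gene-length offsets, 0 in eIL-1-80 alone and 1 in eIL-1-76 alone. For IL-1R1 nRestore at 9 h (1) there were 3 without a filter on low counts and 0 with the striatal marker covariate. The difference between IL-1R1 eRestore and C57BL/6J at 9 h (0) had 1 member, Chrm4, with DESeq2 (0.65, adjusted p = 0.031) and 1 with experiment in place of age (0.61, adjusted p = 0.0091). With the striatal covariate 1 member, Adra2b (-0.41), was called over the 4 strains at 72 h, 16 and 12 differed in sham mice between 24 or 72 h and 9 h, and 1 differed between IL-1R1 gKO or IL-1R1 eRestore and C57BL/6J sham mice. In C57BL/6J mice only, 5 and 6 members differed in response between 9 h and 24 or 72 h, and 15 differed in sham mice between 24 and 9 h. With experiment in place of time point 0 members differed between IL-1R1 nRestore and C57BL/6J sham mice. Except where the number of mice was smaller, the cause was not tested.

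Leaving out 1 mouse at a time gave 7 to 10 called members in C57BL/6J at 9 h, 0 to 1 in IL-1R1 gKO at 9 h (Htr2a, -0.44, without sham replicate 4) and at 24 h (Drd1, 0.76, without sham replicate 1), and 3 to 12 in IL-1R1 eRestore at 9 h, where the 12 came without sham replicate 6. In IL-1R1 nRestore at 9 h it gave 0 to 1, the Htr1b call being kept without CHI replicate 3 or sham replicate 2. Mice of both groups were left out in turn where there were 5 or fewer sham mice, and sham mice alone elsewhere. At 24 and 72 h the other comparisons within strains gave 0 to 0.

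Signs turned only in sham mice. With the striatal covariate the log2 difference between 24 and 9 h became -0.25 for Htr4, -0.11 for Drd2, 0.025 for Htr3a, -0.0039 for Adra2c, -0.19 for Adra2b and -0.34 for Htr1d. That between 72 and 9 h became -0.00054 for Drd3, -0.21 for Htr4, -0.10 for Drd2, -0.037 for Adra2c, 0.096 for Htr5b, 0.015 for Hrh1, -0.13 for Adra2b and -0.12 for Htr1d. It became 0.038 for Htr7 in C57BL/6J mice only. Depth limits Drd3, Drd4, Chrna1, Chrnb4 and Chrm5, which had few counts, and the 4 sham mice of IL-1R1 nRestore at 9 h limit that strain.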
